A study of Mus musculus with 24 samples.

Results

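Wild-type (WT) mouse testis at 49 days was compared with WT testis at 15 days, to show what normal postnatal maturation does to the transcripts of the organ. The series has 24 arrays, of which 12 come from NSun2 knock-out testes of the same ages. Those entered only the normalization and an alternative fit with all 24 arrays. The 12 arrays compared were chosen by their labels, WT at 49 days (6 arrays) and WT at 15 days (6 arrays). Every animal was WT at Nsun2 and of the F1 cross CBA x C57BL/6J, and no treatment is named. Whole-testis RNA was labelled and read on 1 Illumina mouse beadchip array per sample. Whether each sample came from its own animal is not stated, so p-values reflect only how much these samples vary.

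The seminiferous tubules hold germ cells in layers, carried by Sertoli cells, wrapped by peritubular myoid cells, and separated by an interstitium with Leydig cells, vessels and macrophages. Spermatogonia divide by mitosis, spermatocytes pass through the long meiotic prophase, and haploid round spermatids reshape into elongating spermatids with an acrosome, a flagellum and a nucleus packed by protamines. In the mouse the first wave of this program starts shortly after birth and runs nearly in step. A testis at 15 days therefore holds spermatogonia and spermatocytes up to the early pachytene stage but normally no spermatids, while a testis at 49 days holds every stage. In whole-organ RNA, fewer cells of a type and less RNA per cell cannot be told apart. A normalized level is also relative to the other transcripts on its array. A cell type can therefore have lower levels when other cells supply more of the RNA, and these cases were not separated.

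A level below is the log2 of a background-corrected, quantile-normalized intensity with an offset of 16, and a change is the mean level at 49 days minus that at 15 days. The number of probes above background ran from 16267 to 18598 of 45278 per array, and the dimmest such probe had a level between 6.32 and 6.87. The brightest level on any of these arrays was 15.90. The brighter 50% of probes by mean over the 12 arrays (22639 probes, 12142 named genes with the brightest probe taken for each) entered the tests. A gene that was dim at 1 age entered more readily if it was bright at the other, so the filter favoured genes that differ. Of the tested genes, 152 were above background on no array of either age. The words rose and fell are kept for genes that passed a limma test for a change of over 2-fold at an adjusted p of 0.05. The test used fitted levels, also those within the background. A gene could therefore pass while its lower bound, given below as "at least", was under 2-fold. The arrays separated by age on the first principal component, which held 93.7% of the variance, with 148.8 to 162.1 at 49 days and -165.7 to -142.7 at 15 days. Each of the 4 slides held arrays of both ages.

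Much of the transcriptome differed between the ages, with fewer but far larger increases than decreases. Of 12142 genes, 2329 (19.2%) rose and 3373 (27.8%) fell by over 2-fold, and without the 2-fold requirement 3743 (30.8%) were higher and 6782 (55.9%) lower at adjusted p under 0.05. The median change was 3.14 among the genes that rose and -1.77 among those that fell. A change of over 16-fold was found for 875 genes that rose and for 16 that fell. The lowest array of the higher age group lay above the highest of the other for 9122 genes (75.1%), against the percentages called above. Of the 5702 called genes, 5701 had the same sign within all 4 slides.

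The balance of increases and decreases depends on the scaling. The median change over all genes was -0.54 after quantile normalization and 0.16 after cyclic loess, and the share of calls that were increases was 40.8% and 77.9% (3216 rose, 915 fell by cyclic loess). No call changed sign under cyclic loess. For some of the lists the median is therefore also given relative to the median of all genes under both scalings.

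**Figure D1:**
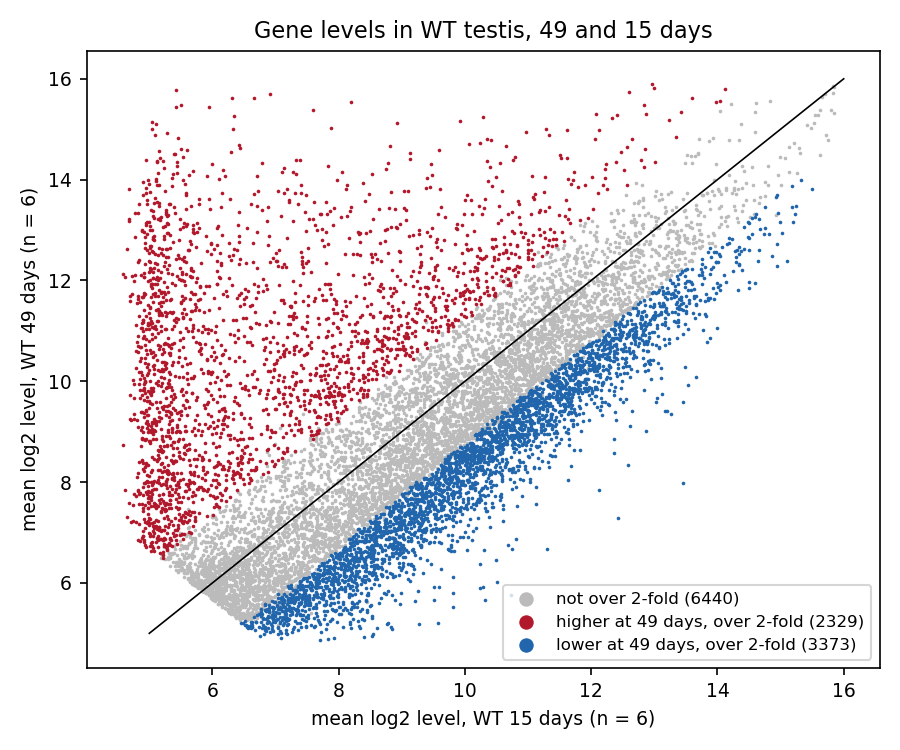
Mean log2 level of each of the 12142 tested genes in WT testis at 49 days (vertical axis, n = 6) and at 15 days (horizontal axis, n = 6), with genes that passed the over 2-fold test in red (2329 higher at 49 days) and blue (3373 lower). The red cloud reaches the left edge, where the level at 15 days is in the background, while the blue cloud runs as a band close to the line of equal level.

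The largest changes came from genes of the last stages of sperm formation. All 21 tested genes of the elongating spermatid list and all 22 of the round spermatid list rose, against 19.2% of all tested genes, with median changes of 8.79 and 6.61. With genes that were dim at 15 days set to their lower bound, these medians were 8.15 and 5.97, and relative to all genes the medians were 9.33 and 7.15 (9.52 and 7.48 after cyclic loess). On the 15-day arrays 12 of the 21 and 11 of the 22 were never above background. They entered the test through their level at 49 days, so the counts describe the lists without supporting them. Another member, Tssk1, was too dim to be tested. Prm1 and Tnp1 encode a protamine and a transition protein, which replace histones in the condensing nucleus. The lowest, median and highest level of Prm1 were 15.65, 15.71 and 15.76 at 49 days, against 5.58, 6.42 and 10.20 at 15 days, and it rose by 8.79 (SE 0.57, limma adjusted p = 8.40e-09). Tnp1 levels were 15.53, 15.61 and 15.73 at 49 days, against 5.63, 6.42 and 8.68 at 15 days, and it rose by 8.96 (SE 0.37, limma adjusted p = 2.87e-11). The ages did not overlap for either gene, nor did they for 75.1% of all tested genes. The highest 15-day level of both Prm1 and Tnp1 came from WT 15-day replicate A. Without that array the changes of Prm1 and Tnp1 were 9.44 and 9.37.

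Many genes of this phase were not above background on any 15-day array and near the top of the scale at 49 days. Smcp, a cysteine-rich protein of the sperm mitochondrial sheath, had levels of 15.30, 15.51 and 15.56 at 49 days, against 5.24, 5.39 and 6.29 at 15 days, which is at least 557-fold higher at 49 days. Cabs1, a calcium-binding protein of spermatids, was at least 438-fold higher, and Hils1, a linker histone-like protein of the spermatid nucleus, had levels of 14.93, 15.01 and 15.07 at 49 days, against 4.73, 4.84 and 6.10 at 15 days. Gsg1, a germ cell membrane protein, and Oaz3, the antizyme of spermatids, rose by 10.36 (SE 0.29) and 9.51 (SE 0.25), and each was above background on 1 of 6 arrays at 15 days. Among the round spermatid genes, Tssk6, a protein kinase of the testis, was at least 213-fold higher, with levels of 13.95, 14.10 and 14.21 at 49 days, against 5.33, 5.67 and 5.83 at 15 days. Actl7a, an actin-like protein of the acrosomal region, was at least 218-fold higher, and Capza3, an actin-capping protein of sperm, at least 169-fold higher. The acrosomal vesicle gene Acrv1 was at least 143-fold higher, and Txndc8, a thioredoxin of spermatids, at least 115-fold. Every one of these genes had 6 arrays at 49 days above all 6 at 15 days. Among all tested genes 75.1% likewise had no overlap, in either direction. Those never above background at 15 days entered through their 49-day level.

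**Figure D2:**
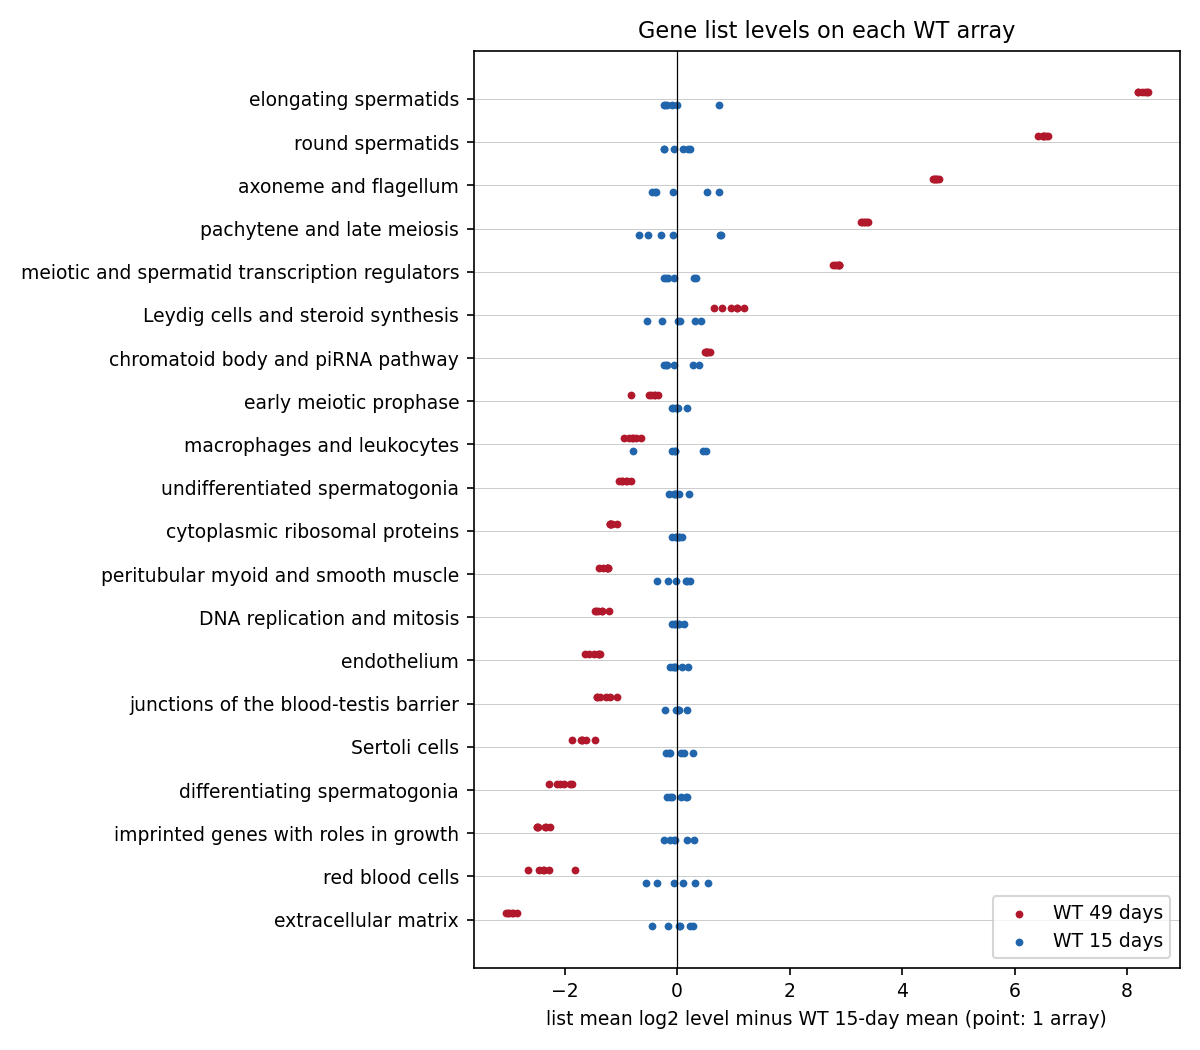
Mean log2 level of the tested genes of 20 lists on each WT array, drawn as the difference from the 15-day mean of the list, with 49-day arrays in red above 15-day arrays in blue. The spermatid, flagellum and pachytene lists lie to the right at 49 days, extracellular matrix, red blood cells, imprinted growth genes and differentiating spermatogonia lie to the left, and 15-day replicate A stands apart in the elongating spermatid list (0.74).

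Genes of the pachytene spermatocyte, the long stage in which homologues recombine and much of the later sperm program is first transcribed, were also higher. Of 17 tested genes of this list, 15 rose (88.2%, against 19.2% of all tested genes) and 0 fell, with a median change of 2.72. Without background correction, and likewise with all 24 arrays in the fit, 12 rose. Mybl1, Nme8 and Adam2 were too dim to be tested. Pgk2, a glycolytic kinase encoded by a retrogene, had levels of 14.50, 14.68 and 14.89 at 49 days, against 5.47, 6.16 and 7.72 at 15 days, and rose by 8.27 (SE 0.33, limma adjusted p = 2.86e-11). Adam3, a surface protein that sperm need to reach the egg, had levels of 14.41, 14.57 and 14.69 at 49 days, against 4.88, 5.91 and 8.42 at 15 days, and rose by 8.26 (SE 0.51, limma adjusted p = 4.71e-09). Pgk2 and Adam3 were each above background on 2 of 6 arrays at 15 days. Neither overlapped between ages, nor did 75.1% of all tested genes. Ccna1, the cyclin of male meiosis, was not above background at 15 days and was at least 45.7-fold higher at 49 days. Spink2, a protease inhibitor of the acrosome, rose by 5.85 and Nme5, a protein of sperm flagella, by 3.73, from levels above background on all 12 arrays. Hspa2, the heat shock protein of spermatocytes, changed by 1.28 and did not pass the over 2-fold test (limma adjusted p = 0.0972), although it passed without 15-day replicate B (1.38) or C (1.37). Tbpl1, a relative of the TATA-binding protein that spermatids need, was at or near background at both ages with its tested probe (5.56 to 6.13 at 49 days, against 5.69 to 6.36 at 15 days).

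Transcription regulators of meiosis and spermatids moved with these genes, as 11 of 13 tested rose and 1 fell (84.6% and 7.69%, against 19.2% and 27.8% of all tested genes), with a median change of 2.39. Of the 13, 3 were never above background at 15 days and entered only through their 49-day level, and with dim genes at their bound the median was 2.11. Crem, whose activator form drives many spermatid promoters, had levels of 12.64, 12.76 and 12.78 at 49 days, against 8.29, 8.41 and 9.30 at 15 days, and rose by 4.07 (SE 0.18, limma adjusted p = 4.37e-10), while 3 of its 4 other probes gave another call. Fhl5, a partner of that activator, was at least 193-fold higher, and Spz1, a testis transcription factor, at least 125-fold higher. Sox30, which spermatids need to form, was at least 3.08-fold higher, and Rfx4, a factor of the family that binds ciliary gene promoters, rose by 2.84. Taf7l, a germ cell subunit of the general transcription factor TFIID encoded on the X chromosome, fell by 2.50 (SE 0.13, limma adjusted p = 5.69e-08), with levels of 10.61, 11.01 and 11.21 at 49 days, against 13.18, 13.43 and 13.71 at 15 days. The members of the list thus did not all move one way.

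All 14 tested genes of the axoneme and flagellum rose, against 19.2% of all tested genes, with a median change of 4.79. At 15 days 4 of the 14 were never above background and entered only through their 49-day level, and with these at their bound the median was 4.29. Ropn1 and Tekt3, a fibrous sheath protein and a filament protein of the sperm tail, stayed in the background at 15 days. Ropn1 was at least 50.2-fold and Tekt3 at least 66.4-fold higher at 49 days. Cfap58 rose by 6.64 (SE 0.20), Dnali1, an axonemal dynein chain, by 6.26 (SE 0.31), and Spag16, of the central pair, by 5.55 (SE 0.31). The 15-day arrays of Spag16 ranged more widely than the 49-day ones, with 11.63 to 11.87 at 49 days, against 5.15 to 7.55 at 15 days.

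The chromatoid body, the RNA-rich granule of spermatocytes and spermatids that stores piRNA pathway proteins and is named in the title of the study, did not move one way as a list. Of 20 tested genes of the granule and the piRNA pathway, 7 rose and 3 fell (35% and 15%, against 19.2% and 27.8% of all tested genes), and the median change was 0.38. The number that rose was 4 without background correction and with all 24 arrays in the fit, and the number that fell was 1 by cyclic loess. Tdrd6, a Tudor protein that builds the granule in spermatids, had levels of 14.15, 14.34 and 14.50 at 49 days, against 7.37, 8.38 and 10.57 at 15 days, and rose by 5.55 (SE 0.45, limma adjusted p = 2.42e-07). Gtsf1, a cofactor of piRNA-guided cleavage, rose by 3.04, Pld6, the mitochondrial nuclease that forms piRNA ends, by 2.18, and Ddx25, an RNA helicase of the granule, by 2.17. Piwil1, the PIWI protein of pachytene piRNAs, had levels of 13.87, 14.01 and 14.17 at 49 days, against 11.07, 11.95 and 13.55 at 15 days, and rose by 1.81 (SE 0.35, limma adjusted p = 0.0416). The 15-day range of Piwil1 was the wider, and its other probe was not called. Of 12 fits that each left out 1 array, Piwil1 passed in 2, those without 15-day replicate B or C (2.07 without C), and over the 12 its lowest change was 1.58. It also did not pass with slide as a fixed block (1.63), without a brightness filter, without background correction (1.75) or with all 24 arrays. Other members fell. Piwil4, a PIWI protein of fetal prospermatogonia, was at least 1.72-fold lower at 49 days, Mov10l1, the helicase of piRNA precursors, fell by 1.53, and Dicer1, the nuclease that makes microRNAs, fell by 2.10 (SE 0.10). Asz1, Tdrkh and Tdrd5 changed by -0.74 (0.12 by cyclic loess), -1.01 and 0.78 without passing the over 2-fold test.

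Most tested genes of differentiating spermatogonia, which precede these stages, fell. Of 10 tested members, 7 fell and 0 rose, against 27.8% of all tested genes that fell, and the list median relative to all genes was -1.59 (-1.51 after cyclic loess). Stra8, the gene that retinoic acid induces at meiotic entry, had levels of 4.93, 5.06 and 5.39 at 49 days, against 7.56, 8.15 and 8.95 at 15 days, and was at least 3.04-fold lower at 49 days. Sohlh1, a transcription factor of spermatogonial differentiation, fell by 2.46 (SE 0.14, limma adjusted p = 2.34e-07), and Ccnd2, a cyclin of dividing spermatogonia and somatic cells, fell by 3.29 (SE 0.20, limma adjusted p = 6.97e-08). Kit, the stem cell factor receptor that marks differentiating spermatogonia and is also made by Leydig cells, changed by -1.33 and missed the over 2-fold test (limma adjusted p = 0.0843), which it passed without 15-day replicate C (-1.44). Uchl1, a ubiquitin hydrolase of spermatogonia, and Rhox13, an X-linked homeobox gene of germ cells, changed by -2.20 and -2.64.

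Among 13 tested genes of undifferentiated spermatogonia, the pool that holds the stem cells, 6 fell and 1 rose (46.2% and 7.69%, against 27.8% and 19.2% of all tested genes), with a median of -0.40 relative to all genes (-0.79 after cyclic loess). Of the 13, 7 were never above background at 49 days, and with these at their bound the list median was -0.34, against -0.94 as fitted and -0.54 for all genes as fitted. Among the 6 that fell, Zbtb16, Nanos3 and Lin28a had bounds under 2-fold (1.42-fold for Zbtb16). Their calls rest on 49-day levels within the background. Without background correction 3 fell and the relative median was 0.02. Ret, the receptor for the stem cell niche factor GDNF, had levels of 5.20, 5.60 and 6.28 at 49 days, against 8.86, 9.14 and 9.79 at 15 days, and was at least 6.14-fold lower at 49 days. Sall4 and Foxo1, transcription factors of these cells, fell by 2.45 and 2.58, and of 2 RNA-binding proteins Nanos3 was at least 1.90-fold lower and Lin28a at least 1.84-fold. Lhx1, a homeobox gene of the GDNF response, rose and was at least 3.68-fold higher at 49 days, where it was above background on 6 of 6 arrays. Id4, a marker of the stem cell fraction, changed by 0.79, without passing the over 2-fold test. Gfra1, the co-receptor of Ret, was among 4 list members too dim to be tested.

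Few early meiotic prophase genes were called. Of 17 tested, 4 fell (23.5%, against 27.8% of all tested genes), 1 rose (5.88%, against 19.2%) and 12 did not pass the over 2-fold test. By cyclic loess 1 fell and 2 rose, without background correction 2 fell, and the list median was -0.27 by quantile normalization but 0.54 by cyclic loess. Tex11, an X-linked gene needed for crossing-over, had levels of 8.96, 9.41 and 9.78 at 49 days, against 11.23, 11.77 and 11.92 at 15 days, and fell by 2.28 (SE 0.15, limma adjusted p = 2.05e-06). Rad51ap2 (8.48 to 9.44 at 49 days, against 10.81 to 11.45 at 15 days), Mei1, needed for meiotic breaks (-1.65), and Meiob, which binds single-stranded DNA at the breaks (-1.38), fell too. Rec8, the meiotic cohesin subunit, had levels of 10.61, 10.93 and 11.02 at 49 days, against 8.84, 9.10 and 9.97 at 15 days, and rose by 1.69 (SE 0.17, limma adjusted p = 0.00145). Spo11, the enzyme that makes the breaks, changed by 0.91, and Msh5 and Hormad2 by -1.02 and -1.21, none passing the over 2-fold test except Hormad2 without 15-day replicate A (-1.27). Sycp3, Dmc1, Hormad1 and Tex15 were below the brightness limit and not tested.

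**Figure D3:**
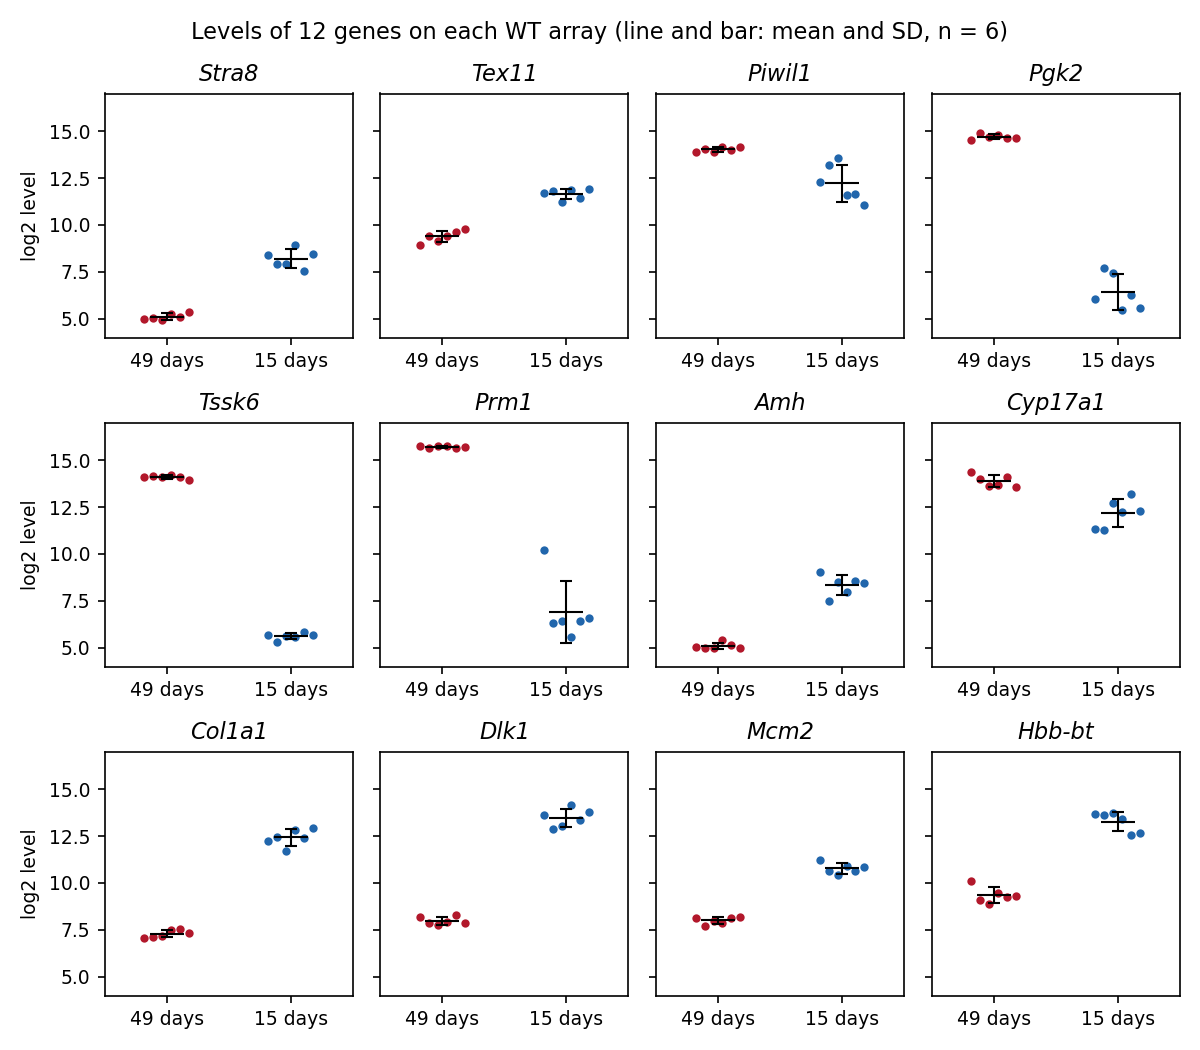
Log2 level of 12 genes on each WT array at 49 days (left, red) and 15 days (right, blue), with the mean and SD (n = 6 each). Stra8 and Amh reach the background at 49 days, and Tssk6 lies there at 15 days. Prm1 is above background on 4 of 6 arrays at 15 days, with replicate A at 10.20. Prm1 spreads most at 15 days, followed by Piwil1 and Pgk2.

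Germ cells replace several widely expressed enzymes and structural proteins by forms of their own, some encoded by retrogenes whose X-linked parent genes are silenced in meiosis. Of 22 such pairs listed, 11 had both forms tested. The testis form rose in 10 of the 11, the widely expressed form fell in 6, and both happened in 5. The widely expressed form rose in 2. Over all tested genes 19.2% rose and 27.8% fell. The 10 include Ppp3cc, whose probes disagree. Gapdhs, Hspa1l, Cetn1 and Ubl4b were never above background at 15 days and entered only through their 49-day level. Of other pairs, the testis forms Pdha2, Cyct, Slc25a31, Cstf2t and Utp14b were not tested, and Taf7l, whose partner was not tested, fell. For phosphoglycerate kinase, Pgk2 rose by 8.27 and X-linked Pgk1 fell by 1.51 (SE 0.11, limma adjusted p = 8.18e-04). For glyceraldehyde-3-phosphate dehydrogenase, Gapdhs was at least 304-fold higher and Gapdh fell by 2.16 (SE 0.09, limma adjusted p = 2.15e-08). For subunit 6B of cytochrome c oxidase, Cox6b2 rose by 1.97 and Cox6b1 fell by 1.98. The members of these 3 pairs moved in opposite directions. For the calcineurin catalytic subunit, Ppp3cc rose by 1.40 (SE 0.09, limma adjusted p = 0.00131) with its brightest probe while its other probe changed by -0.77, so its direction is not settled here, and Ppp3ca changed by 0.89 without passing. For the regulatory subunit, Ppp3r2 rose by 6.60 and Ppp3r1 fell by 1.54, and for ribosomal protein L39, Rpl39l rose by 1.78 and X-linked Rpl39 fell by 2.06. Lactate dehydrogenase did not follow this pattern: Ldhc, its sperm form, had levels of 15.87, 15.90 and 15.90 at 49 days, against 11.75, 12.67 and 14.35 at 15 days, and rose by 2.93 (SE 0.37, limma adjusted p = 2.41e-04), and Ldha rose by 2.42 (SE 0.16, limma adjusted p = 7.96e-07). Ldhc at 49 days lay at the top of the scale, where a change can be understated. Among the heat shock proteins, Hspa1l was at least 187-fold higher and the stress-inducible Hspa1b also rose, by 2.14. Rbmxl2, a retrogene of X-linked Rbmx needed in meiosis, changed by 0.31 (SE 0.12, limma adjusted p = 1) and did not pass, while Rbmx fell by 1.91. Centrin Cetn1 was at least 6.34-fold higher and Ubl4b at least 41.5-fold higher, against changes of -1.14 for Cetn2 and -0.47 (0.30 by cyclic loess) for Ubl4a that did not pass the over 2-fold test.

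A set of 910 genes passed the background limit on 6 of 6 arrays at 49 days but on 0 of 6 at 15 days, and 500 genes showed the reverse. Without WT 15-day replicate A, a count added after seeing the data, the set at 49 days numbered 932. The largest bounds on the first side belonged to Smcp and Cabs1 (above), then Gtsf1l (at least 425-fold), Hils1 (above), Tmem247 (at least 375-fold), the perinuclear theca gene Cypt12 (at least 367-fold), Gapdhs (above), the actin-related gene Actrt2 (at least 298-fold), the cysteine-string protein gene Dnajc5b (at least 283-fold) and Akap4 (at least 283-fold), the main scaffold of the fibrous sheath. Among genes above background on at least 4 of 6 arrays of each age, the largest increases after Tnp1 and Prm1 were those of Trim36 (8.20), Plaat5 (7.77), the kinase substrate gene Tsks (7.54) and St6galnac2 (7.35). A further probe of Trim36 changed by -0.88, the other probe of St6galnac2 by -0.53, and a further probe of Mfap3l (6.70) by -1.62, so for these genes the probes disagree in sign. Dbil5, Spaca9, Pgam2, Tex22, Fam205c, Tent5c and Fam71e1 rose by between 6.49 and 7.15. On the other side the bounds were smaller. Mfap2, a protein of elastic microfibrils, was at least 13.2-fold lower at 49 days with levels of 5.44, 5.72 and 5.82 at 49 days, against 9.92, 10.28 and 10.78 at 15 days, Thbd, which encodes thrombomodulin of the vessel wall, at least 12.9-fold lower, and the collagen gene Col1a2 at least 12.5-fold lower. The pseudokinase gene Trib2 was at least 9.35-fold lower, the heparin-binding growth factor gene Ptn at least 9.34-fold and the Wnt antagonist gene Sfrp1 at least 9.34-fold, and Ahsg, Mapk13, Igfbp5 and Spon2 were lower by bounds between 6.41-fold and 7.87-fold.

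The promoters of the 2 sets had different CpG counts, as described next without a test. The stretches from 250 bases upstream of the start to the base before it (RefSeq, GRCm38.p6) are shown for the leading genes of each set that have one in the table, with each CpG dinucleotide in capitals. Genes above background only at 49 days were Smcp, chr3:92589074-92589323 (minus strand), Cabs1, chr5:87979201-87979450 (plus strand), and Gtsf1l, chr2:163089602-163089851 (minus strand).
Smcp: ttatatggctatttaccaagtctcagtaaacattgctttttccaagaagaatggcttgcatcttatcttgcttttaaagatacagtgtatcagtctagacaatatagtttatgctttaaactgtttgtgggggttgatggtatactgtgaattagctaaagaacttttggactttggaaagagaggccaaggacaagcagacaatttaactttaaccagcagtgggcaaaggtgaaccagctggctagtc
Cabs1: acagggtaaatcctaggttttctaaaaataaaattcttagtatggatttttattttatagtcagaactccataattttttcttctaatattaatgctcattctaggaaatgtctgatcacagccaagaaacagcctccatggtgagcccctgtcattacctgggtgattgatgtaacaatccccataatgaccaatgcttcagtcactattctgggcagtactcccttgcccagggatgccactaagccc
Gtsf1l: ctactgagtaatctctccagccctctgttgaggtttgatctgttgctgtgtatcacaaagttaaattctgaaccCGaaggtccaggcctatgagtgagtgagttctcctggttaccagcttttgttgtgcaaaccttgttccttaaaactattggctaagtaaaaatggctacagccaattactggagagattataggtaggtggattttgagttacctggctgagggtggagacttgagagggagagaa
Genes above background only at 15 days were Mfap2, chr4:141010431-141010680 (plus strand), Col1a2, chr6:4505368-4505617 (plus strand), and Trib2, chr12:15816786-15817035 (minus strand).
Mfap2: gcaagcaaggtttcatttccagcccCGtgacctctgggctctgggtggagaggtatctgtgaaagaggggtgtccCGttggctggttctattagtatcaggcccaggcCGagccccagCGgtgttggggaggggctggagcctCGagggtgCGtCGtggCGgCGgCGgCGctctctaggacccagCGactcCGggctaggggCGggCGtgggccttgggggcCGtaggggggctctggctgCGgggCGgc
Col1a2: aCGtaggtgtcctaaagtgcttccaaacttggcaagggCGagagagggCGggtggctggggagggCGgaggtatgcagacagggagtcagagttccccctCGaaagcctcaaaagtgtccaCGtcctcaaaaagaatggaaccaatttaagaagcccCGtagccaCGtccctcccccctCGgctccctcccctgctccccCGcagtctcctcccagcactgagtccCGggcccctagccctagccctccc
Trib2: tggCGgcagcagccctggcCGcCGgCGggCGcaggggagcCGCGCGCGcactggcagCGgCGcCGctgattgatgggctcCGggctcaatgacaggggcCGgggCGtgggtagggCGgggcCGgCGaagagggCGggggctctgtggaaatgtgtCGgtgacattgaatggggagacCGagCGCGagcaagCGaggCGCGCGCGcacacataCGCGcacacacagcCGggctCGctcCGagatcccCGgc
The 3 stretches of the first set hold 0, 0 and 1 CpG, and those of the second hold 18, 11 and 34. Over 9835 tested genes with a listed promoter of 300 bases (250 before and 50 after the start), the median number of CpG was 4 in 721 genes above background at 49 days only, against 18 in 392 genes above background at 15 days only. It was 11 in genes that rose and 21 in genes that fell, with 20 in all. No more than 5 CpG were found in 58.9% of promoters of genes above background at 49 days only, against 13.5% at 15 days only and 14.6% of all promoters. The GC box GGGCGG, searched on both strands, was in 42.2% of promoters of genes that rose, against 69.8% of those that fell and 60.9% of all. The half-site GTTGCC of RFX factors, on both strands, was in 18.9% of promoters of genes that rose, 10.03% of those that fell and 13.5% of all. The full cAMP response element TGACGTCA, which contains its own CpG, was in 2.95%, 2.94% and 3.12%. For the 1973 genes with several listed starts the table's single window may not be the start used in testis.

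**Figure D4:**
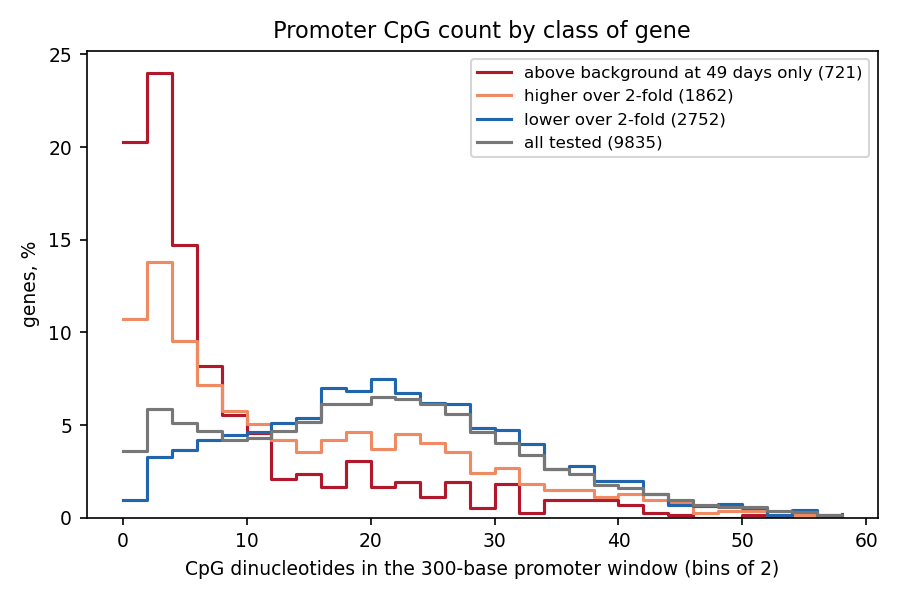
Percentage of genes (vertical axis) by the number of CpG dinucleotides in the 300-base promoter window (horizontal axis, bins of 2), for genes above background at 49 days only (721), higher over 2-fold (1862), lower over 2-fold (2752) and all tested genes with a promoter (9835). The red curve of the genes seen only at 49 days is concentrated at low counts, with 58.9% at no more than 5, and the blue and grey curves peak near 20.

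Sertoli cell transcripts were lower in mature testis. Of 17 tested, 11 fell and 0 rose (27.8% of all tested genes fell), and the list median relative to all genes was -1.29 (-1.16 after cyclic loess, by which 6 fell and 1 rose). Amh, the hormone of immature Sertoli cells that is switched off at puberty, had levels of 4.99, 5.02 and 5.41 at 49 days, against 7.47, 8.46 and 9.04 at 15 days, and was at least 3.35-fold lower at 49 days. Inha, the inhibin alpha subunit, had levels of 10.07, 10.29 and 10.58 at 49 days, against 12.51, 12.93 and 13.38 at 15 days, and fell by 2.60 (SE 0.14, limma adjusted p = 5.73e-08). Fshr, the receptor for follicle-stimulating hormone, fell by 2.50, the homeobox gene Rhox8 by 2.23, and Gata1, a transcription factor of Sertoli cells in the first wave, was at least 3.24-fold lower. Outside the list, Shbg, which encodes androgen-binding protein, fell by 3.78 (SE 0.22, limma adjusted p = 1.80e-08). Its levels were 7.68, 8.79 and 9.13 at 49 days, against 11.85, 12.37 and 12.72 at 15 days. In the list, Cst9, Rhox5 and the water channel gene Aqp8 did not pass the over 2-fold test, with changes of -1.63, -1.07 and 1.11. Cst9 passed without 49-day replicate E (-1.81). Of 10 genes of the junctions that seal the blood-testis barrier, 6 fell and 0 rose, with a relative median of -0.98 (-0.85 after cyclic loess). Of the 10, 2 fell by cyclic loess and 3 without background correction. Cldn11, the main claudin of the Sertoli barrier, fell by 1.72 (SE 0.12, limma adjusted p = 4.04e-05) and Gja1, connexin 43, changed by -1.59, while Ocln was at least 2.38-fold and Cxadr at least 3.48-fold lower at 49 days. Tjp1 changed by -0.94 without passing.

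The calls for Leydig cell transcripts depended on the setting and on single arrays. Of 8 tested genes of androgen synthesis and Leydig identity 3 rose and 1 fell (37.5% and 12.5%, against 19.2% and 27.8% of all tested genes), with a median change of 1.33. Hsd3b1, Hsd3b6, Fdx1, Akr1c14 and Sult1e1 were on the array but too dim to be tested. The number that rose was 6 by cyclic loess, 1 without background correction, 1 with all 24 arrays in the fit and between 2 and 5 with 1 array left out, with 5 reached without 49-day replicate F. Of the 3, Cyp11a1 has probes that disagree. Cyp17a1, the enzyme that commits steroids to androgens, had levels of 13.59, 13.84 and 14.36 at 49 days, against 11.27, 12.28 and 13.21 at 15 days, and rose by 1.71 (SE 0.29, limma adjusted p = 0.0351). Cyp17a1 did not pass without 15-day replicate A (1.53) or B (1.52) or without 49-day replicate A (1.61), B (1.68) or E (1.66), and passed in the other 7 of 12 such fits. Ces1d, a carboxylesterase of Leydig cells, rose by 3.06 (SE 0.42, limma adjusted p = 3.36e-04). Cyp11a1, which starts steroid synthesis, rose by 1.77 with its brighter probe, but its other probe fell by 1.89, and the mean of the probes was -0.06, so its direction is not settled here. Insl3, a hormone of mature Leydig cells, changed by 1.32 and Hsd17b3, which completes testosterone, by 1.34, neither passing the over 2-fold test. Insl3 passed without 15-day replicate E (1.46) or 49-day replicate F (1.39), and Hsd17b3 without 49-day replicate F (1.53). Star, which brings cholesterol into mitochondria, passed the background limit on 4 of 6 arrays at 49 days but on 0 of 6 at 15 days, at least 1.23-fold higher, and did not pass the over 2-fold test (limma adjusted p = 0.284), except without 49-day replicate C (1.46). Hsd11b1 was at least 1.57-fold lower. The mean of the Leydig list lay between 0.65 and 1.20 at 49 days, against -0.53 (replicate A) to 0.43 (replicate E) at 15 days, so the ages did not overlap but the 15-day arrays spread widely. Genes of cholesterol synthesis kept near the median of all genes, with 1 of 11 that rose, Cyp51 (2.16, SE 0.13), and 1 that fell, Mvd (-1.87, SE 0.17).

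Retinoic acid, made from vitamin A, sets the timing of meiotic entry. Of 13 tested genes of its metabolism and response, 2 rose and 6 fell (15.4% and 46.2%, against 19.2% and 27.8% of all tested genes). By cyclic loess, and likewise without background correction, 2 fell. Rxra, a retinoid receptor, had levels of 10.48, 10.65 and 10.93 at 49 days, against 5.49, 5.84 and 6.07 at 15 days, and was at least 19.6-fold higher at 49 days, and Rdh11, a retinol dehydrogenase, rose by 1.70. Crabp1, which binds retinoic acid in cells, fell by 2.78 (SE 0.20, limma adjusted p = 1.08e-06), Stra6, the cell-surface receptor that takes up retinol, by 2.23, and the degrading enzymes Cyp26a1 and Cyp26b1 by 1.78 and 2.02. Rbp4, the plasma carrier of retinol, was at least 2.13-fold lower. The synthetic enzymes Aldh1a1 and Aldh1a3 changed by -1.13 and -1.17 without passing.

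Most genes of the extracellular matrix fell. Of 21 tested genes, 19 fell and 0 rose, against 27.8% of all tested genes that fell. By cyclic loess 16 fell, against 7.54% of all tested genes. The relative median was -2.36 (-2.31 after cyclic loess). Of the 21, 3 were never above background at 49 days, and with these at their bound the list median was -2.72, against -2.90 as fitted. Col1a1, the main fibrillar collagen chain, had levels of 7.09, 7.26 and 7.56 at 49 days, against 11.71, 12.42 and 12.91 at 15 days, and fell by 5.13 (SE 0.17, limma adjusted p = 9.56e-12). Col3a1 had levels of 5.38, 5.60 and 6.65 at 49 days, against 9.46, 10.93 and 11.71 at 15 days, and fell by 4.98 (SE 0.33, limma adjusted p = 3.95e-08), and Eln, which encodes elastin, fell by 4.62 (SE 0.15). Neither collagen overlapped between ages, nor did 75.1% of all tested genes. Falls were also found for the basement membrane chain Col4a1 (-3.86), Col6a1 (-3.79) and Col6a2 (-4.04). Lum and Col5a1 did not pass the over 2-fold test, at -1.02 (0.30 and 0.016 within 2 of the slides) and -0.81. Outside the list, Mfap4, a microfibril-associated protein, fell by 4.29, Mgp, matrix Gla protein, changed by -3.62, and Ppic, Ildr2, Notch1 and Entpd2 fell by between 3.60 and 4.23.

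Most tested genes of smooth muscle and endothelium fell, against 27.8% of all tested genes, while 2 of 13 leukocyte genes and 0 of 2 epididymal genes did. Of 9 genes of myoid and smooth muscle cells 6 fell (66.7%, 2 by cyclic loess), among them the smooth muscle actin gene Acta2 (-2.38, SE 0.10), Myh11 (-2.32), Smtn (-2.04) and Mylk (-2.01). Actg2, another smooth muscle actin, went the other way, with levels of 13.37, 13.50 and 13.57 at 49 days, against 9.79, 10.62 and 11.08 at 15 days, and a rise of 2.94 (SE 0.17, limma adjusted p = 8.44e-08). Of 8 endothelial genes 5 fell (62.5%, 2 by cyclic loess and 1 without background correction), including Cdh5 (-2.31) and Emcn (-1.94), Eng was at least 4.25-fold lower and Pecam1 at least 1.56-fold, while Vwf changed by 0.77 without passing. Of 13 genes of macrophages and leukocytes 2 fell (15.4%, below the share of all genes), the complement genes C1qa (-1.80) and C1qc (-1.66), and 0 fell by cyclic loess or without background correction. Red blood cell transcripts were lower: 4 of 5 tested genes fell (80%), with Hbb-bt levels of 8.87, 9.28 and 10.08 at 49 days, against 12.57, 13.50 and 13.73 at 15 days, and a fall of 3.92 (SE 0.24, limma adjusted p = 3.06e-08). Alas2, the erythroid enzyme of heme synthesis, instead rose by 2.10 (SE 0.27, limma adjusted p = 0.00174). The red blood cell list mean lay between -2.65 and -1.82 at 49 days, against -0.55 to 0.55 at 15 days, its members are near-identical globin copies in part, and the part of blood content in the other somatic falls was not tested. Of the epididymis list only Cst11 and Lcn8 could be tested and neither passed, at -0.86 and -0.38 (0.020 by cyclic loess for Lcn8), and Lcn5, Lcn9, Adam7 and Rnase10 were too dim to be tested.

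Growth programs of the young organ were lower too. Of 9 imprinted genes with roles in growth, 7 fell and 0 rose, against 27.8% of all tested genes that fell. The relative median was -1.68 (-1.70 after cyclic loess). Dlk1, a Notch-like protein of immature and progenitor cells, had the largest fall of any gene above background on all 12 arrays, with levels of 7.74, 7.92 and 8.31 at 49 days, against 12.85, 13.49 and 14.13 at 15 days, and a fall of 5.47 (SE 0.19, limma adjusted p = 1.27e-11). Igf2, a fetal growth factor, fell by 3.05 (SE 0.14, limma adjusted p = 4.65e-09), Ndn by 2.98, Peg3 by 2.77, and Mest was at least 2.31-fold lower. Peg10 and Cdkn1c did not pass, at -0.76 and -1.20, although Cdkn1c passed without 15-day replicate A (-1.27). Of 19 genes of DNA replication and mitosis 9 fell (47.4%, against 27.8% of all tested genes) and 2 rose (10.5%, against 19.2%). Mcm2, of the replicative helicase, had levels of 7.73, 8.05 and 8.18 at 49 days, against 10.41, 10.77 and 11.20 at 15 days, and fell by 2.77 (SE 0.13, limma adjusted p = 9.48e-09), as did Mcm5 (-2.56), Tyms (-2.58) and Ccnd1 (-2.72). Plk1, a kinase of mitosis and meiosis, rose by 1.49 (SE 0.20, limma adjusted p = 0.0352). Plk1 passed in 5 of 12 fits that left out 1 array (without 15-day replicates B, C or D or 49-day replicates B or C), with changes of 1.38 to 1.62 over the 12, and did not pass with a replicate block, without a filter, without background correction (1.29) or with all 24 arrays. Rrm2, a subunit of ribonucleotide reductase, rose by 2.18 with its brightest probe, while its 2 other probes changed by -0.61 and -0.79. Top2a and Cdc6 did not pass, at -1.08 and -1.20, although Cdc6 passed without 15-day replicate C (-1.28).

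Ribosomal protein genes had changes between -2.51 and -0.0077. Of 46 tested, 22 fell (47.8%, against 27.8% of all tested genes) and 0 rose, with a relative median of -0.61 (-0.57 after cyclic loess, by which 5 fell). By scale normalization 14 fell with a relative median of -0.37, and without normalization 13 fell with one of -0.35. X-linked Rps4x fell by 2.51 (SE 0.14, limma adjusted p = 1.18e-07) and X-linked Rpl36a by 2.48, with Rps3 and Rpl22 at -2.40 and -2.20. Rpl34, Rpl4 and Rps2 did not pass, at -1.16, -1.15 and -1.15, although Rpl4 passed without 15-day replicate A (-1.24). Ribosomal protein genes have many near-identical pseudogene copies, which a probe may not tell apart. For enzymes that methylate RNA cytosine at carbon 5 and the proteins that read the mark, 1 of 8 tested genes rose (12.5%, against 19.2% of all tested genes) and 2 fell (25%, against 27.8%), shares near those of all genes. By cyclic loess 2 rose and 0 fell, and without background correction 0 rose. Nsun2, the methyltransferase the study is about, changed by 0.04 (SE 0.23, limma adjusted p = 1), with levels of 5.79, 6.77 and 6.99 at 49 days, against 5.85, 6.62 and 7.24 at 15 days that overlapped and were above background on 3 of 6 arrays at 49 days and 5 of 6 at 15 days. Nsun7 rose by 1.98 (SE 0.13), and Nsun5 and the export adaptor gene Alyref fell, at -1.99 and -1.59. Nsun4, Ybx1 and Trdmt1 did not pass, at -0.06, 0.91 and -1.27, although Trdmt1 passed without 15-day replicate A (-1.40) or 49-day replicate D (-1.37).

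The X chromosome, which is silenced in pachytene spermatocytes and stays largely repressed in spermatids, differed from the autosomes. Of 446 tested X-linked genes 251 (56.3%) fell and 77 (17.3%) rose, against 26.8% that fell and 19.1% that rose among 11640 autosomal genes. The share that fell on single autosomes lay between 21.7% and 29.2%. Without background correction 150 X-linked genes fell. By cyclic loess 93 X-linked genes (20.9%) fell, against 7.04% of autosomal genes. The X-linked median relative to all genes was -0.996 (-0.961 after cyclic loess and -0.534 without background correction). Without the brightness filter the X-linked median was -0.47, against -0.09 for all genes. Of the 446 genes, 69 were never above background at 15 days and 72 never at 49 days. The largest falls were those of Gpc3, a cell-surface proteoglycan (6.56, 6.88 and 7.07 at 49 days, against 10.31, 10.73 and 11.36 at 15 days), which fell by 3.95, Hs6st2, which modifies heparan sulfate (-3.86), Itm2a (-3.67), Bex2 (-3.38) and the ferritin-like germ cell gene Fthl17f (-3.18). Genes that rose belonged in part to spermatid families. Among histone variants of spermatids, H2al1m was at least 258-fold higher and H2al1n at least 202-fold, H2al1e rose by 10.02, and the perinuclear theca gene Cypt3 by 8.83. The H2al1 genes are near-identical copies, so the signal of a probe may be shared between them. On the Y chromosome 11 of 16 tested genes rose and 1 fell.

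**Figure D5:**
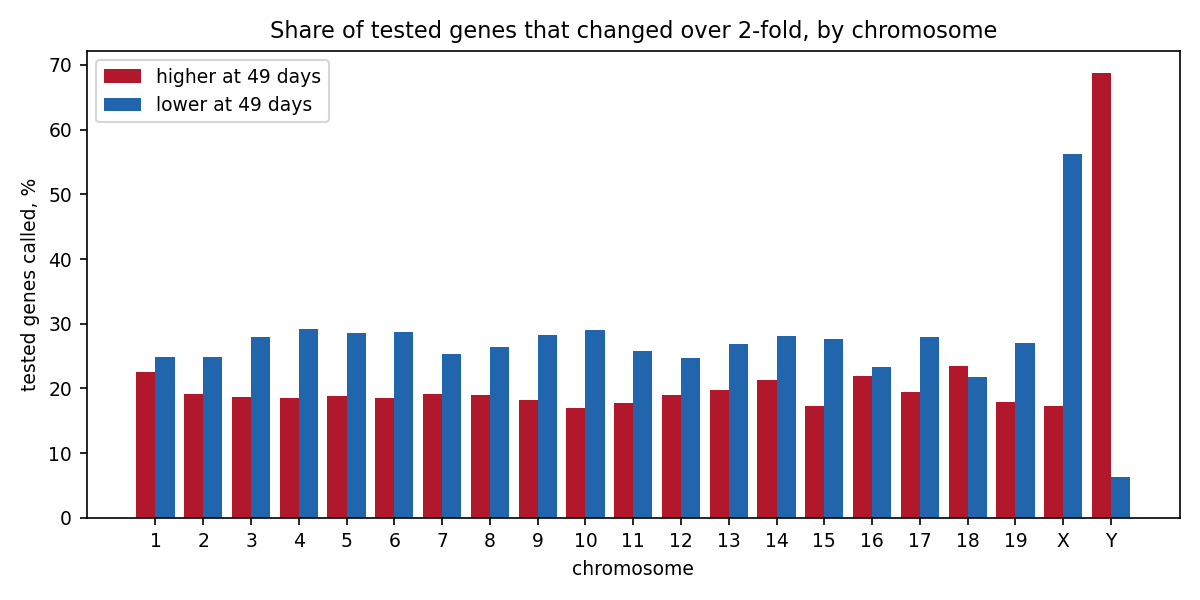
Percentage of tested genes on each chromosome that were higher (red) or lower (blue) at 49 days by over 2-fold. The blue bar of X reaches 56.3% with all 19 autosomes between 21.7% and 29.2%, and the red bar of Y stands for 11 of 16 genes.

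Levels differed more among the 15-day arrays than among the 49-day arrays. The median SD of a gene was 0.17 at 49 days, against 0.23 at 15 days, and it was larger at 15 days for 65.2% of genes. The pachytene list mean spanned 3.27 to 3.39 at 49 days, against -0.67 to 0.78 at 15 days, where replicates B (0.77) and C (0.78) were high, A (-0.07) and E (-0.29) lay between, and D (-0.53) and F (-0.67) were low. D and F were the 15-day arrays of slide 1, while B and E, which differed, shared slide 2. The same replicates B and C were the highest in the flagellum list (0.74 and 0.54) and in the chromatoid body list (0.39 and 0.28). Genes with the widest 15-day spread included meiotic and late germ cell genes. Spink2 levels were 14.41, 14.66 and 14.87 at 49 days, against 7.23, 8.31 and 10.82 at 15 days, Adam5 levels 13.28, 13.45 and 13.66 at 49 days, against 6.51, 7.84 and 10.21 at 15 days, and Catsperz, a subunit of the sperm calcium channel, had 15.03, 15.12 and 15.21 at 49 days, against 7.01, 8.58 and 10.98 at 15 days. For these genes no 15-day array reached the 49-day levels. Leukocyte genes also varied: the list mean was -0.79 in replicate A, against 0.46 in E and 0.52 in F, and Cd52, a surface antigen of leukocytes and epididymal sperm, was high in replicate D alone (6.54, 6.86 and 7.02 at 49 days, against 8.34, 8.77 and 12.37 at 15 days). Scd1, a fatty acid desaturase, ranged from 8.30 to 9.07 at 49 days, against 7.66 to 11.36 at 15 days.

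Elongating spermatid genes in WT 15-day replicate A stood apart, with a list mean of 0.74 against -0.24 to -0.01 in the other 15-day arrays. The signal was small beside the 49-day arrays, which lay between 8.20 and 8.37. Prm1 reached 10.20 in this array, against 5.58 to 6.57 in the other 5, Tnp1 8.68 against 5.63 to 6.56, and Oaz3 7.21. The source of this signal was not tested. X-linked Magea5, Magea6 and Magea8, near-identical members of a testis antigen family, were low in replicate E alone, at 5.74, 4.90 and 5.25, against 9.56 to 10.25, 7.68 to 8.43 and 9.08 to 10.08 in the other 15-day arrays. With all arrays the 3 genes changed by -1.85, -1.74 and -1.93 and did not pass the over 2-fold test. Without replicate E they changed by -2.56, -2.29 and -2.65 and passed. At 49 days the widest spreads were those of genes with separate high and low arrays: Psmd8, a proteasome subunit, ranged from 8.62 to 11.72 at 49 days, against 11.28 to 12.56 at 15 days, Tomm22, of the mitochondrial import pore, from 9.68 to 12.50 at 49 days, against 8.72 to 11.69 at 15 days, and Map4k1, Agt and Cpsf4l had SDs of 1.66, 1.70 and 1.78. None of these 5 passed the over 2-fold test with all arrays, although Tomm22 passed without 15-day replicate C (2.27), and the ages overlapped for each.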

How the data were processed

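RNA was isolated with Trizol and amplified into biotin-labelled complementary RNA, per the labels' protocols. The deposited starting table gives unnormalized linear intensity for 45278 probes and 956 control rows; its detection columns are empty. Scanner software is not given in the sources used here, nor is the array build. The authors' deposited log2 values equal quantile-normalized log2 intensity to within 3.62e-05 and served as an alternative. Intensities of all 24 arrays were corrected and quantile normalized with neqc (normexp, offset 16, 946 dim control rows with medians under 400 as background) in limma 3.58.1 under R 4.3.3. A probe was above background where under 1% of dim control rows were brighter. The brighter 50% of probes over the 12 WT arrays entered lmFit and eBayes on those arrays (10 residual degrees of freedom), and treat for over 2-fold changes, two-sided, with Benjamini-Hochberg adjustment over 22639 probes. A gene is its brightest tested probe.

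Names came from a platform annotation (34885 probes with 1 symbol, 18 with several, 10375 unnamed here), updated through identifiers for 34807. Where a gene was not above background at 1 age, "at least" gives its fold against the higher of its level and the dimmest above-background level of each array. The precision is limited by the 6 arrays per group. The comparison, the lists (chosen from general knowledge of testis) and their genes were chosen with earlier results of these data known. Named genes, passing over unnamed gene models, were the 15 largest rises and falls called at over 2-fold and above background on at least 4 of 6 arrays of each age; the 10 largest bounds each way among called genes above background on 6 of 6 arrays of 1 age and 0 of 6 of the other; up to 5 called members of each list per direction and up to 3 not called; every tested gene of the isoform pairs; Nsun2; and the 5 genes with the highest SD within each age among those above background on all 12 arrays. The fit was tested on simulated data. Alternatives were other normalizations and background corrections, filters, all 24 arrays, slide and replicate blocks, gene summaries and leaving out each array.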

Additional observations from a re-analysis of the deposited data

Results flagged for a closer look

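Dixon's test was applied to 496 groups of 6 arrays, and 36 held an array far from the others. In unselected, independent groups chance alone marks about 1 in 20. Here 446 groups were levels of named genes, some of them named for a high SD, so that rate is only a rough guide. In the lists, early meiotic prophase was low in WT 49-day replicate D (-0.83), ribosomal proteins were high in 49-day replicate E (-1.07), retinoic acid genes were low in 49-day replicate C (-0.94), and elongating spermatids were high in WT 15-day replicate A (0.74).

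WT 15-day replicate A was the high array for Prm1 (10.20), Tnp1 (8.68), Gsg1 (7.04), Smcp (6.29), Hils1 (6.10), Cypt12 (6.01), Cabs1 (5.98), H2al1n (5.75) and Fhl5 (5.16), genes of spermatids, and the low array for Rpl4 (9.90). Of these, Smcp, Hils1, Cypt12, Cabs1, H2al1n and Fhl5 were not above background even in that array.

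WT 15-day replicate E was low for Magea5 (5.74), Magea6 (4.90) and Magea8 (5.25), which are near-identical copies and not independent of each other. In the other 15-day arrays, Cd52 was high in replicate D (12.37), Fthl17f in replicate D (10.27), and Ccna1 (6.05) and Tomm22 (11.69) in replicate C. Cst9 was low in replicate C (14.30), and Nsun5 (9.80) and Ubl4a (9.24) in replicate B.

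At 49 days, replicate A was high for Hspa1l (14.27) and Tex22 (13.70) and low for Mfap3l (12.84), Rec8 (10.61) and Txndc8 (12.90). Replicate F was high for Col3a1 (6.65) and low for Smcp (15.30) and Trib2 (5.27). Amh was high in replicate D (5.41), Uchl1 in replicate E (10.26), Myh11 was low in replicate C (8.83), and Ldhc was lower in replicate B (15.87) than in the other 5 arrays, which all stand at 15.90, the highest level the normalization gives, so the test marks no outlier there.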

How the results depend on the processing

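Leaving out each array in turn gave 5530 to 5698 genes called at over 2-fold (2284 to 2336 higher, 3246 to 3362 lower), 9624 to 9934 probes so called and 18941 to 19185 probes at adjusted p under 0.05. Fewer calls came with cyclic loess (915 genes lower), with no background correction and with the authors' log2 values (5664 probes, 3604 genes and 1803 lower under both, with 49.97% of called genes higher), and with a filter to probes above background on all 12 arrays (10989 probes, 5021 over 2-fold, 3280 genes, 948 higher, 28.9% of called genes), which tests fewer genes. Of 223 genes named in the text, 45 lost and 24 gained the over 2-fold call in at least 1 fit. Cyclic loess lost 28 and gained 12, no background correction lost 30 (as did the authors' log2 values), all 24 arrays lost 12, no normalization lost 4 and gained 2, no filter lost 3, the mean of probes lost 3 and gained 3, scale normalization lost 2 and gained 2, slide as a fixed block lost 2 (Cyp17a1 and Piwil1), and the replicate block lost 1 (Plk1) and gained 2 (Kit and Trdmt1). Leaving out 1 array lost the calls of Cyp17a1, Piwil1 and Plk1 in some fits and gained calls for 15 genes, given in the report. Of 25 list medians, 23 moved by over 1 SD under cyclic loess, 20 without background correction, 12 without a filter and 10 with the filter to all 12 arrays. In fits, 5 values changed sign among genes named in the text with a plain adjusted p under 0.05. Among list medians larger than 1 SD, 2 changed sign. Under cyclic loess these were the medians of early meiotic prophase (0.54) and cholesterol synthesis (0.21) and Asz1 (0.12), Lcn8 (0.020) and Ubl4a (0.30). Mfap3l was -1.62 with the filter to all 12 arrays, where another probe stood for it, and Cyp11a1 -0.060 as a mean of probes. The RNA cytosine-5 methylation median, not counted because it was under 1 SD, was -0.058 in the main fit and 0.47 by cyclic loess. Within slides, Aqp8 was -0.13 on slide 2, Lum 0.30 and 0.016 on slides 3 and 4, the macrophage median 0.028 on slide 3, and on slide 4 Rbmxl2 was -0.15, Tomm22 -0.60 and the chromatoid body median -0.23. The cause of these was not tested. The labels do not say whether the replicate letters pair the samples. Correlations of deviations within a letter were -0.05 to 0.13, and the highest with another letter were 0.03 to 0.20. The same letter gave the higher value for A, B and C and the lower for D, E and F, which does not settle the pairing. With a replicate block 5688 genes were called, 2327 higher and 3361 lower. Limits: the number of arrays and the offset bound the folds of dim genes, and the scaling sets the split between increases and decreases. A mean level of whole tissue does not separate cell number, RNA per cell and the share of RNA that other cells supply.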
